A study of Mus musculus with 23 samples.

Results

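The genes of the proteasome and its activators were described in type 1 conventional dendritic cells (cDC1) sorted from mouse melanomas. The members were all rows of the deposited count table whose symbol begins with Psma, Psmb, Psmc, Psmd or Psme followed by a digit, with 1 pseudogene row left out. This rule took 43 of 13572 genes. Measured expression played no part in it. Psmc3ip, which encodes a recombination protein and not a proteasome subunit, also matches the name rule and was set apart. The hosts in both groups were wild-type mice of the C57BL/6 strain, and all tumours grew under the skin from BRAFV600E melanoma cells. In the control group (4 mice, 12 libraries) the cancer cells kept both cyclooxygenase genes. In the other group (4 mice, 11 libraries) the cancer cells carried the Ptgs1/Ptgs2 knockout. These tumours are called PGE2-deficient here, although no prostaglandin level was part of these data and the host cells of both groups had intact genes. On day 6 the living CD45+ cells that were positive for MHC-II, CD11c and CD103 and negative for CD11b were sorted. Each library was made from a pool of 10 such cells by Smart-seq3, which reads whole transcripts from a few cells. The age of the mice is not in the labels.

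The proteasome is the protease that degrades ubiquitin-tagged proteins and supplies most of the peptides that class I MHC molecules present to CD8 T cells. Its barrel-shaped core has outer rings of alpha subunits and inner rings of beta subunits, and the catalytic beta subunits of the standard particle are encoded by Psmb5, Psmb6 and Psmb7. In the immunoproteasome they are replaced by the products of Psmb8 (LMP7), Psmb9 (LMP2) and Psmb10 (MECL-1), which interferon gamma induces and which most blood-derived cells, dendritic cells among them, also make without it. The core is opened either by the regulatory particle, made of the Psmc ATPases and the Psmd subunits, or by the PA28 ring encoded by Psme1 and Psme2. Presentation of tumour antigen on class I MHC is a main task of cDC1.

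Libraries held between 25571 and 98554 counts, and the 43 genes took 0.755% of all counts. In all, 23 of them had at least 1 count in each of the 23 libraries. After the pools of a mouse were summed, 32 of the 43 had enough counts to be tested and 11 did not. The sorted cells carried their defining genes: all 11 listed cDC1 markers (among them Xcr1, Clec9a, Irf8 and Batf3) had counts in both groups. Of the 4 listed B cell markers only 1 was in the count table, and it had no count. Of the 6 melanoma markers 2 were in it, with 9 counts in the control and 1 in the PGE2-deficient group. Markers of other cell types were present too and are given below. With 10 cells per library and this depth, values per library were small, so mice were compared and pools served to describe spread. The exception was 1 alternative fit, limma-voom over libraries, which took the 23 libraries as units. It estimated the correlation between pools of a mouse at −0.00059, so such pools counted as nearly independent. Its adjusted p values therefore do not stand for a comparison of mice. In bulk pools, fewer expressing cells and less RNA per cell cannot be told apart.

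For 2 of the members the counts cannot be fully separated. Psme2b is a single-exon copy of Psme2 on chromosome 11 (48945354 to 48946190, minus strand, GRCm38), whereas Psme2 lies on chromosome 14 (55587441 to 55591113, minus strand). Their coding sequences, both 720 bases long in GENCODE M21, differed at 5 positions and were 99.3% identical. Counting from the A of the start codon, with the base of Psme2 first, the differences were C312T, A369G, C489T, C519T and C543T. Of all 50-base windows of the Psme2 coding sequence, 69.6% occurred unchanged in Psme2b. The stretch below covers coding positions 424 to 543 of both genes and is shown because it holds 3 of the 5 differences, in capitals, and otherwise cannot assign a read.
Psme2: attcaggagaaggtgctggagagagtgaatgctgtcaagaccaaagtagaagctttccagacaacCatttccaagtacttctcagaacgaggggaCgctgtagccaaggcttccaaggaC
Psme2b: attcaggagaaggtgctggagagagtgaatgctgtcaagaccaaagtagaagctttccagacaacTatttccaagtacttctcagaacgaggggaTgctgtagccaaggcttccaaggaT
Between each inducible catalytic subunit and the standard one it replaces, no such sharing was found. Copies of these genes elsewhere in the genome were not searched for. Psmb8 and Psmb5 were 63.6% identical over the coding alignment, Psmb9 and Psmb6 61.8%, and Psmb10 and Psmb7 62.3%. None of these pairs shared a single 50-base window.

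Of the 5 inducible genes, 4 were the most abundant proteasome genes in these cells, and Psmb10 was not among them. Levels between genes were compared as CPM (counts scaled to a common library size by TMM) per kilobase of exon. By this measure, over the 8 mice of both groups, the order began with Psme1 (752 ± 177, mean ± SD), Psme2 (635 ± 270), Psmb8 (583 ± 163) and Psmb9 (404 ± 103). The next were Psma7, an alpha ring subunit, at 363 ± 63.0, Psmb3, a structural beta subunit, at 362 ± 95.8, and the standard catalytic gene Psmb6 at 338 ± 93.4. The first 4 genes overlapped in their ranges over mice, and so did Psmb9 with the 3 that followed it, so the order among neighbours is not fixed by these data. Psmb10 stood apart from the other inducible subunits, at 117 ± 24.8, below Psmb5 (160 ± 33.3) and Psmb7 (159 ± 35.8). Without division by length its mean over the mice, 154 CPM, lay above Psmb5 (144 CPM) and below Psmb7 (184 CPM). The regulatory particle was low throughout, with all 17 of its genes ranked under Psmb10. The sources used here do not give whether the counts are of reads or of molecular identifiers, and identifiers would not scale with length. Per raw count, the 5 inducible genes held 33.4% of all counts of the 43 members and the 17 regulatory particle genes 18.4%.

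**Figure D1:**
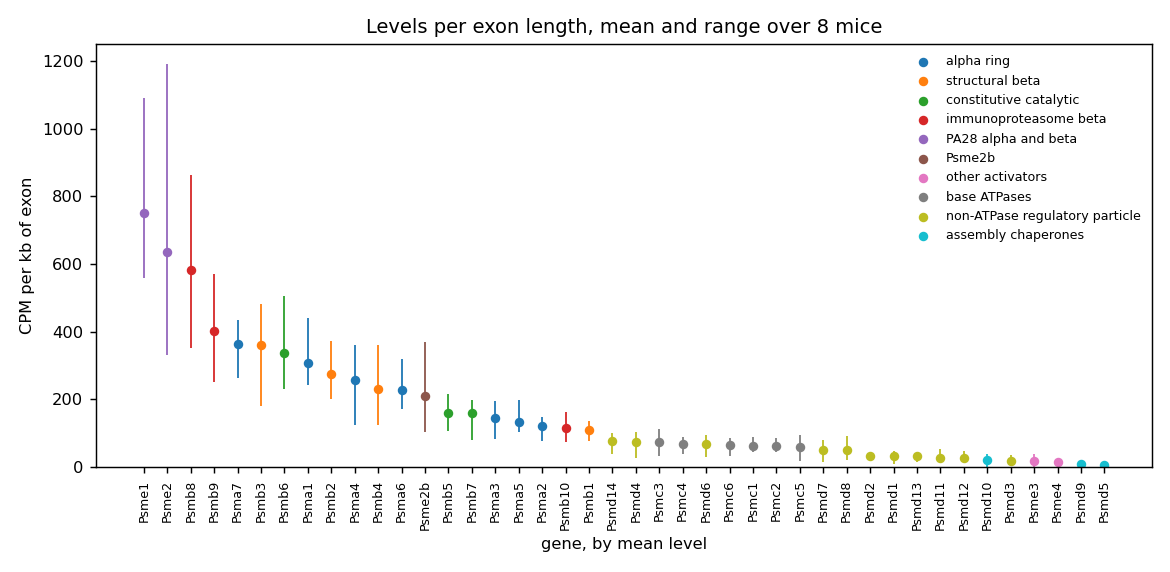
Level of each proteasome gene in CPM per kilobase of exon (vertical axis), ordered by the mean over the 8 mice of both groups; points are means, lines run from the lowest to the highest mouse, and colours give the role. Psmc3ip is left out. Psme1, Psme2, Psmb8 and Psmb9 lead the order, whereas Psmb10 lies under Psmb5, Psmb6 and Psmb7, and the regulatory particle genes are at the low end.

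Within each mouse, the 3 inducible catalytic genes were set against the standard subunit that each replaces. Psmb8 exceeded Psmb5 per kilobase in 8 of 8 mice and in 23 of 23 pools, with a ratio between 1.80 and 5.31 (median 3.54). Psmb9 and Psmb6 lay closer together: the ratio ran from 0.989 to 1.58, above 1 in 6 of 8 mice and in 18 of 23 pools. Psmb10 was the reverse case. Its ratio to Psmb7 ran from 0.531 to 1.5 and exceeded 1 in 1 of 8 mice, control mouse 2, and in 9 of 23 pools. Without division by length, Psmb9 exceeded Psmb6 in 8 of 8 mice and Psmb10 exceeded Psmb7 in 2. Together, Psmb8, Psmb9 and Psmb10 made up between 52.9% and 68.6% of the catalytic counts per kilobase in the mice, and between 47.8% and 75.7% in single pools (median 63.5%).

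The share of inducible catalytic counts overlapped between the groups. In control mice 1 to 4 it was 65.1%, 64.6%, 58.7% and 52.9%, and in PGE2-deficient mice 1 to 4 it was 63.4%, 60.8%, 65.7% and 68.6%. The means were 60.3% ± 5.74 (SD, n = 4) and 64.6% ± 3.35 (n = 4). The low control values came from mice 3 and 4, and the other control mice lay within the range of the PGE2-deficient group. The log2 ratio of Psmb8 to Psmb5 was 1.53 ± 0.48 in the control and 2.07 ± 0.32 in the PGE2-deficient group, that of Psmb9 to Psmb6 0.17 ± 0.18 and 0.32 ± 0.30, and that of Psmb10 to Psmb7 −0.33 ± 0.64 and −0.51 ± 0.37. Each of the 3 ratios overlapped between groups. As values composed of several members they were not tested.

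**Figure D2:**
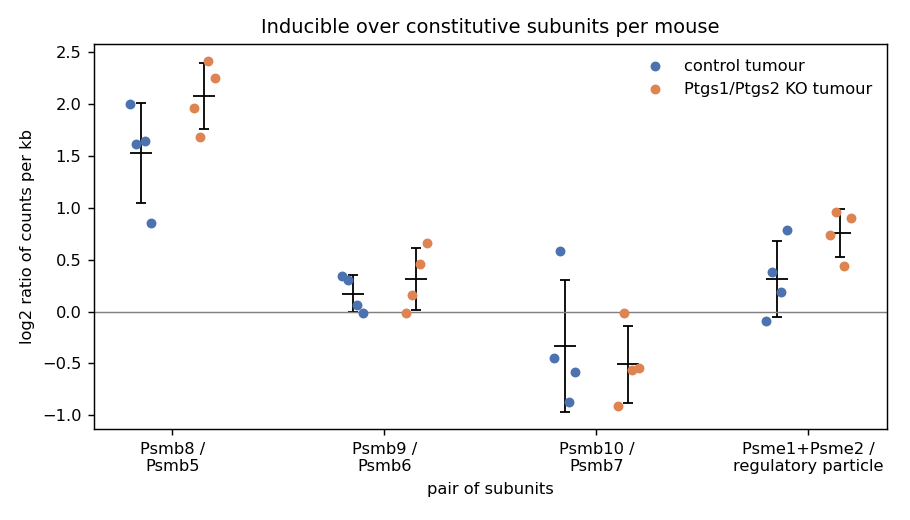
Log2 ratio of counts per kilobase (vertical axis) for each inducible subunit over the standard subunit it replaces, and for the PA28 pair over the regulatory particle; points are mice, bars the mean and SD of 4 mice. Psmb8 lies above Psmb5 in every mouse, Psmb9 lies near Psmb6, and Psmb10 lies under Psmb7 in 7 of 8 mice; the groups overlap in all 4 ratios.

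Promoter sequences are printed for the catalytic pair with the widest ratio. Both sequences are the 120 bases up to the RefSeq start of the gene, GRCm38.p6. The RefSeq starts differ from those of GENCODE M21. By GENCODE, the Psmb8 stretch lies inside the gene (34197721 to 34201454) and the Psmb5 stretch partly inside (54614119 to 54618022). The Psmb8 stretch is chr17:34198075-34198194, plus strand, with the GAS letters TTCNNNGAA, an interferon gamma-activated element, in capitals. The Psmb5 stretch is chr14:54617996-54618115, minus strand, with TGACNNNGC, the antioxidant response element, in capitals.
Psmb8: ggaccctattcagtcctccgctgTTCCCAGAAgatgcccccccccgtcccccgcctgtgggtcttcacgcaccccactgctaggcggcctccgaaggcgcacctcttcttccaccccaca
Psmb5: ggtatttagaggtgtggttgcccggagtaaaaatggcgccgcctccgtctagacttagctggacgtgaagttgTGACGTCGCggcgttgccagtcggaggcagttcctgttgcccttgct
Matches were searched on both strands from 250 bases before to 50 bases after the start, in 40 windows of the 37 members with a RefSeq promoter. The GAS letters, which read the same on both strands, occurred in 2 member windows (Psmb8 and Psmd2), or 5%, against 8.30% of all 32851 windows. The interferon-stimulated element, GAAA followed by any 2 bases and GAAA, occurred in 4 member windows (Psme1, Psmb3, Psmd4 and Psmd9), or 10%, against 3.44% of all. TGACNNNGC occurred in 6 (15% against 12.4%) and CCAAT in 14 (35% against 37.4%). Psmb9, Psmb10 and Psme2 had no match to the first 2 motifs in this window. A match describes letters only.

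The comparison of the groups asks whether loss of cyclooxygenases in the cancer cells came with a change of proteasome genes in the cDC1. Of the 32 tested members 1 was higher with PGE2-deficient tumours and none lower at the threshold of 0.05 on the adjusted p (two-sided quasi-likelihood test of edgeR, adjusted by Benjamini-Hochberg over 2076 genes). Among all tested genes 2.7% were called higher and 2.26% lower, so the members' 1 of 32 was near the background. The count of 0 lower members also held with DESeq2 and limma-voom, which called 1.78% and 3.81% of all genes lower, and no member with a negative fold change had an unadjusted p under 0.05. The only called member was Psme2b. None of the immunoproteasome genes, standard catalytic subunits or regulatory particle genes was called. Without adjustment, 8 of the 32 members had a p under 0.05, all with positive fold changes. They were Psme2b, Psme2, Psma4, Psmb8, Psmb9, Psma3, Psme1 and Psmb3. Among all 2076 tested genes 389 had such a p. Of these, 200 (9.63% of the tested genes) had a positive fold change and the rest a negative one. When the filter was lowered to 10 counts over the 8 mice, 42 of the 43 members entered the test and none was called, with 1.03% of all genes higher and 0.806% lower (edgeR adjusted p of Psme2b 0.0989). In that fit 30 of the 42 had a positive fold change and their median log2 fold change was 0.24, beside 4443 of 8559 and 0.03 over all genes. Other settings called between 0 and 2 members higher. The count was 2 with robust dispersion (2.79% of all genes higher) and with limma-voom (2.99%). It was 0 with DESeq2 (2.41%), upper quartile scaling (2.17%), the mouse number as a block (2.17%), a lower filterByExpr minimum of 5 (1.71%) and when libraries with at least 10 counts from the full marker lists were left out (0.182%). The 8 fits without a mouse called 0 to 2, with 1.39% to 3.03% of all genes higher.

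Psme2b was measured at 127, 120, 120 and 86.2 CPM in control mice 1 to 4 and at 195, 308, 168 and 281 CPM in PGE2-deficient mice 1 to 4. The groups did not overlap, as was the case for 4.91% of all tested genes in this direction. The means were 113 ± 18.3 and 238 ± 67.0 CPM (n = 4 each), with a log2 fold change of 1.05 ± 0.30 (SE) and an edgeR adjusted p of 0.0497. The call held in 1 of the 8 fits without a mouse, the one without PGE2-deficient mouse 3 (log2 fold changes from 0.91 to 1.19 over the 8 fits). It was absent with DESeq2 (adjusted p = 0.0895), limma-voom over libraries (0.239), upper quartile scaling (0.0609) and the mouse number as a block (0.077), and over all alternatives the adjusted p ran from 0.034 to 0.239. How reads that fit both Psme2b and Psme2 were counted is unknown.

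Psme2, which encodes the beta subunit of PA28, had a positive estimate just outside the threshold. It had 322, 430, 432 and 596 CPM in the control mice and 633, 1163, 587 and 792 CPM in the PGE2-deficient mice. Control mouse 4 and PGE2-deficient mouse 3 made the groups overlap. The log2 fold change was 0.80 ± 0.24 (edgeR adjusted p = 0.0536, 95% interval 0.31 to 1.30). Leaving out control mouse 4 or PGE2-deficient mouse 3, or estimating dispersion robustly, brought the adjusted p to 0.0402, 0.0381 and 0.0346. One pool was far above the rest: pool 3 of PGE2-deficient mouse 2 held 80 Psme2 and 25 Psme2b counts, against 18 and 1 in the other pool of that mouse. Without this mouse the log2 fold change of Psme2 was 0.57 (adjusted p = 0.192) and that of Psme2b 0.91 (adjusted p = 0.129). When both genes were counted as 1 row, a setting chosen after seeing the data, the row had 449, 551, 552 and 682 CPM in control mice and 828, 1471, 755 and 1073 CPM in PGE2-deficient mice, without overlap. Its log2 fold change was 0.86 (edgeR adjusted p = 0.0266). Psme2b took between 12.6% and 28.2% of the summed counts in each mouse.

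Psme1, which encodes the alpha subunit of PA28, lies 5911 bases from Psme2 on chromosome 14 (55578123 to 55581529, plus strand). It was measured at 667, 645, 622 and 894 CPM in control mice and at 945, 830, 873 and 1213 CPM in PGE2-deficient mice. Control mouse 4 lay inside the other group, and the remaining control mice lay below it. The log2 fold change was 0.44 ± 0.18 (edgeR adjusted p = 0.185, 95% interval 0.06 to 0.83), and 0 of 20 alternative fits called it. Psme1 and Psme2 together were 1.53-fold higher in the mean with PGE2-deficient tumours (1152 ± 228 against 1759 ± 282 CPM, n = 4, overlapping).

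Psmb8, the inducible counterpart of Psmb5, had 955, 783, 763 and 572 CPM in control mice and 1403, 925, 954 and 1238 CPM in PGE2-deficient mice. Only control mouse 1 reached into the other group. The log2 fold change was 0.56 ± 0.19 (edgeR adjusted p = 0.0974, 95% interval 0.17 to 0.96). It stayed between 0.44 and 0.66 over the fits without a mouse. The adjusted p fell under the threshold in 1 of 20 alternatives, limma-voom over libraries (0.0324), whose units are pools and not mice. Psmb9, the counterpart of Psmb6, had 403, 508, 341 and 502 CPM in control mice and 575, 771, 597 and 669 CPM in PGE2-deficient mice. The groups did not overlap, but the gene was not called (log2 fold change 0.56 ± 0.20, edgeR adjusted p = 0.119, 95% interval 0.14 to 0.98). Both genes lie in the MHC on chromosome 17, Psmb8 at 34197721 to 34201454 (plus strand) and Psmb9 at 34181987 to 34187764 (minus strand). The GENCODE M21 start of Psmb9 lies 211 bases from that of Tap1, the peptide transporter gene read in the opposite direction. Tap1 begins at 34187553, inside the annotated Psmb9, so the ends of these genes overlap. Tap1 was not called either (log2 fold change 0.86, edgeR adjusted p = 0.106).

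Psmb10, on chromosome 8 (105935735 to 105938444, minus strand), had nearly equal means in the groups. Its values were 161, 163, 141 and 165 CPM in control mice and 97.5, 214, 148 and 140 CPM in PGE2-deficient mice. The lowest and the highest value both came from the PGE2-deficient group. The log2 fold change was −0.09 ± 0.30 (edgeR adjusted p = 0.909), with a 95% interval from −0.72 to 0.54 whose upper end lies just under the estimates of Psmb8 and Psmb9. The difference between these genes was not tested. Summed over Psmb8, Psmb9 and Psmb10, the level was 1364 ± 144 CPM in control mice (1239 to 1518) and 1933 ± 172 CPM in PGE2-deficient mice (1699 to 2076), a 1.42-fold higher mean without overlap.

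**Figure D3:**
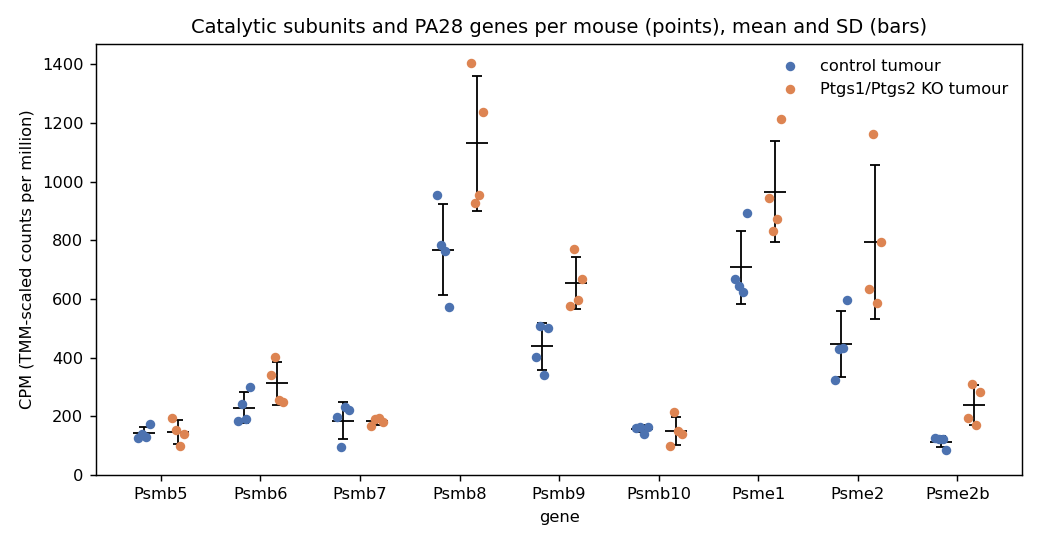
CPM (vertical axis) of the standard catalytic genes, their inducible counterparts and the PA28 genes in each of the 4 mice per group (points), with mean and SD. Psmb9 and Psme2b show no overlap between the groups, while Psmb5, Psmb7 and Psmb10 have almost equal means.

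The standard catalytic subunits had small or uncertain differences. Psmb5, the chymotrypsin-like subunit, had 127, 138, 130 and 172 CPM in control mice and 195, 154, 97.0 and 140 CPM in PGE2-deficient mice (log2 fold change −0.004 ± 0.30, edgeR adjusted p = 0.994). Psmb7, the trypsin-like subunit, had 196, 94.6, 231 and 220 CPM and 166, 190, 194 and 182 CPM (−0.007 ± 0.29, edgeR adjusted p = 0.992). In both genes the groups overlapped fully. Their 95% intervals, −0.63 to 0.62 and −0.62 to 0.61, leave room for changes of the size estimated for Psmb8. Psmb6, the caspase-like subunit, had 184, 241, 191 and 298 CPM in control mice and 341, 403, 255 and 248 CPM in PGE2-deficient mice (0.41 ± 0.27, edgeR adjusted p = 0.455). PGE2-deficient mice 1 and 2 lay above every control mouse and the others did not. The 3 genes together had 555 ± 95.4 CPM in control and 641 ± 98.5 CPM in PGE2-deficient mice.

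In the alpha ring, which gates the core, 7 of 7 genes were tested, 0 were called and all had positive fold changes, with a median of 0.33. Psma4 had 276, 146, 221 and 251 CPM in control mice and 419, 344, 342 and 404 CPM in PGE2-deficient mice. The groups did not overlap (log2 fold change 0.76 ± 0.25, edgeR adjusted p = 0.0892). Of the alternatives, the fit with pools as units, limma-voom over libraries, called it (adjusted p = 0.0361). Psma3 also separated the groups, with 241 to 408 CPM against 451 to 556 CPM (0.59 ± 0.22, edgeR adjusted p = 0.134). Psma7, which had the most counts of the class, went from 388 ± 77.9 to 470 ± 48.0 CPM (0.27, edgeR adjusted p = 0.555). Summed over the ring the level was 2015 ± 272 CPM in control and 2597 ± 218 CPM in PGE2-deficient mice, the lowest PGE2-deficient mouse (2300) lying just under the highest control mouse (2305).

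Of the structural beta subunits, which complete the inner rings without cutting, 4 of 4 were tested and 0 called, with a median log2 fold change of 0.19. Psmb3 had 253, 138, 261 and 243 CPM in control mice and 370, 308, 357 and 289 CPM in PGE2-deficient mice, without overlap (0.58 ± 0.26, edgeR adjusted p = 0.23). Psmb4 went from 237 ± 131 to 309 ± 121 CPM (0.38, edgeR adjusted p = 0.623), with control mouse 1, at 426 CPM, the highest of all 8 mice. Psmb1 had equal means, 373 ± 71.4 and 372 ± 99.4 CPM (0.01, edgeR adjusted p = 0.99). The estimates of the 4 genes ran from −0.05 (Psmb2) to 0.58 (Psmb3).

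The regulatory particle unfolds ubiquitin-tagged proteins and feeds them to the core. Of its 17 genes 11 were tested and none was called, with a median log2 fold change of 0.14. The base ATPases had nearly equal sums, 675 ± 59.0 CPM in control and 701 ± 71.4 CPM in PGE2-deficient mice. Psmc6 (−0.23, edgeR adjusted p = 0.782), Psmc2 (0.15, adjusted p = 0.877) and Psmc3 (0.14, adjusted p = 0.879) were within the spread between mice. The other subunits summed to 899 ± 74.4 CPM (800 to 978) in control and 1124 ± 76.3 CPM (1062 to 1235) in PGE2-deficient mice, a 1.25-fold higher mean without overlap. Among them Psmd4, a ubiquitin receptor, had 127, 129, 130 and 47.0 CPM in control mice and 146, 154, 189 and 190 CPM in PGE2-deficient mice (0.69 ± 0.34, edgeR adjusted p = 0.287). Psmd1, a scaffold subunit, went from 76.7 ± 46.0 to 127 ± 20.3 CPM (0.67 ± 0.40, edgeR adjusted p = 0.404). Control mouse 4 gave the lowest Psmd4 value of all mice.

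Set against the regulatory particle, the PA28 pair had a log2 ratio per kilobase of 0.31 ± 0.37 in control and 0.76 ± 0.23 in PGE2-deficient mice, with overlap. The pair exceeded the summed regulatory particle in 7 of 8 mice per kilobase but in 2 of 8 by raw count. Of the other activators, Psme4, which encodes PA200, had 101 ± 50.8 and 101 ± 34.2 CPM (0.02, edgeR adjusted p = 0.975, 95% interval −0.82 to 0.87), and Psme3, the nuclear PA28 gamma, had 22 and 27 counts in all and was not tested. Psmd5, Psmd9 and Psmd10, chaperones of regulatory particle assembly, had 20, 24 and 27 counts over the 8 mice and were not tested. Psmc3ip had 6. Of the 11 untested members none had more than 84 counts.

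**Figure D4:**
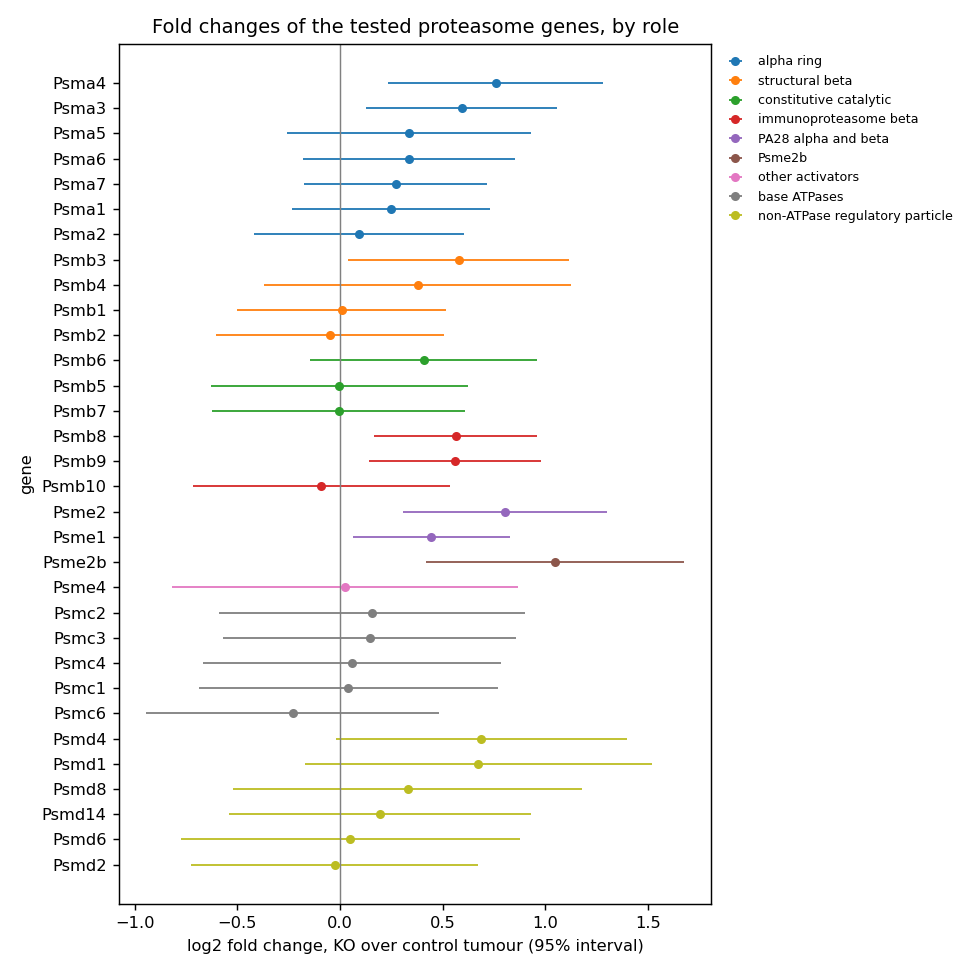
Log2 fold change of PGE2-deficient over control tumours (horizontal axis) with its 95% interval for each of the 32 tested members, coloured by role. Psme2b has the largest estimate and is the one called gene; Psmb10, Psmb5, Psmb7 and most regulatory particle genes lie near 0, with wide intervals.

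Across members, 6 of the 32 had all PGE2-deficient mice above all control mice (Psme2b, Psma4, Psma3, Psmb9, Psmb3 and Psmd4) and 0 had the reverse order. Among all tested genes these arrangements made up 4.91% and 5.73%. Of them, 1 was among the 5 immunoproteasome genes. The median log2 fold change was 0.56 over the 5 immunoproteasome genes and 0.18 over the 26 other tested members apart from Psme2b, against 0.01 over all tested genes. Upper quartile scaling moved the median of all genes by −0.066 and left the estimates of Psmb8 and Psmb9 at 0.49 and that of Psme2 at 0.73.

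The summed markers of cDC1 and cDC2 separated the groups, whereas the macrophage or monocyte, pDC, T cell and maturation sums overlapped. The 11 cDC1 markers summed to 2289 to 3764 CPM in control and 4276 to 6228 CPM in PGE2-deficient mice. They did not move alike: Irf8 had 349 and 735 counts and Naaa 252 and 609, but Batf3 56 and 71 and Flt3 122 in each group. The 5 cDC2 markers, all with counts in both groups, summed to 231 to 565 CPM and 29.2 to 166 CPM. The 8 macrophage or monocyte markers ran from 23 to 1032 CPM in control and 107 to 154 CPM in PGE2-deficient mice, where C1qb was at 0. The 6 pDC markers ran from 161 to 1255 and 231 to 408 CPM, with Siglech, Ly6d and Klk1 at 0 in the PGE2-deficient group. Bst2 had more counts there (131 against 68 in the control group) and made up most of the 161 pDC marker counts of that group. T cell markers, 8 in all, summed to 11 and 58 counts, with Cd4 at 0 in both groups and Cd8a and Trbc1 at 0 in the control group, and 6 maturation genes to 357 to 972 and 745 to 3197 CPM. Without the 9 libraries that held 10 or more counts of narrowed macrophage, pDC and T cell lists, an alternative set after the data were seen, 19 members could be tested and 0 were called, where 1.59% of genes were called higher. There the log2 fold changes were 0.62 for Psmb8, 0.62 for Psmb9, 0.55 for Psme1, 1.34 for Psme2 and 1.62 for Psme2b (edgeR adjusted p from 0.0785 to 0.325). Estimates of this size were not confined to these genes: Psma4 had 1.02, Psmb3 0.90, Psmb6 0.81, Psma2 0.69 and Psmb7 0.50. Others were near 0, such as Psmb1 (0.07), and the inducible Psmb10 had −0.15. The setting planned at the outset left out the 18 libraries with 10 or more counts of the full macrophage, pDC and T cell lists, and kept 4 control libraries and 1 PGE2-deficient library. There Psmb8 (0.08 ± 0.48), Psmb9 (0.25 ± 0.57), Psme1 (0.03 ± 0.51) and Psme2 (0.50 ± 0.59) had smaller estimates than with all libraries, with large errors. That of Psma7 was also smaller (0.06). The estimates of Psmb4 (1.54), Psmb3 (1.52), Psma3 (1.16), Psmb6 (0.85) and Psma6 (0.43) were larger there. Those of Psma2 (−1.31), Psmb1 (−0.76) and Psma1 (−0.37) were negative. The part of the marker levels in the differences between groups was not tested.

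Of genes that work with the proteasome, those of its assembly and supply were not called. The assembly and inhibitor list had 1 of 6 genes tested, Pomp, the maturation factor of the core (655 ± 89.8 against 734 ± 85.4 CPM, log2 fold change 0.17, edgeR adjusted p = 0.683). Of 11 proteasome-associated genes with counts, 3 were tested and 0 called, Rad23b, a ubiquitin shuttle, having the smallest p (0.30, edgeR adjusted p = 0.7). Of 4 regulators of standard proteasome genes 1 was tested, Nfe2l2 (NRF2), with 210 ± 7.63 CPM in control and 141 ± 44.0 CPM in PGE2-deficient mice and no call (−0.51, edgeR adjusted p = 0.356). Nfe2l1 (NRF1), the main regulator of these genes, had 15 and 45 counts and was not tested.

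Genes upstream and downstream of the immunoproteasome were counted in the same way. Of 9 genes that regulate it 7 were tested, 2 higher and 0 lower, beside 2.7% higher and 2.26% lower over all tested genes. Irf8, a transcription factor that cDC1 depend on, rose from 837 ± 296 to 1510 ± 205 CPM (log2 fold change 0.85 ± 0.21, edgeR adjusted p = 0.0215), and this call held in 4 of the 8 fits without a mouse. In the class I peptide supply list 2 of 9 tested genes were higher and 0 lower, B2m (0.87, edgeR adjusted p = 0.0164) and H2-K1 (1.07, adjusted p = 0.0283), beside the same shares over all genes. When each mouse was left out in turn, B2m stayed called in 6 and H2-K1 in 5 of 8 fits. Of 6 tested ubiquitin genes 1 was higher and 0 lower, again beside 2.7% and 2.26% over all tested genes. This was Isg15, a ubiquitin-like modifier, which rose by 2.58 (edgeR adjusted p = 0.000237). Not tested were Usp18 (4 counts in control and 53 in PGE2-deficient mice), Ube2l6 (9 and 39) and Uba7 (23 and 18). With the filter of 10 counts over the mice, 2 of 9 ubiquitin genes were higher, beside 1.03% of all genes. The estimates of Psmb8, Psmb9 and Psme1 were smaller than that of B2m, but the differences between genes were not tested.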

How the data were processed

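The values are counts as the authors deposited them, unnormalized whole numbers for each gene in each library. Reads were aligned with STAR (version 2.5.4b) to GRCm38 (mm10), per the submitters' processing notes; the sources used here give neither the counting program nor the annotation. Libraries of a mouse, technical replicates per the labels, were summed, giving 4 mice against 4. Genes were kept by filterByExpr (minimum count 10). The 2076 genes kept, with 80.6% of the counts, were tested with edgeR 4.0.16 (quasi-likelihood, TMM, two-sided, Benjamini-Hochberg over all tested genes). Standard errors were derived from each fold change and its F value, and 95% intervals from the t distribution. CPM use TMM-adjusted totals over tested genes. Exon lengths are the union of exons in the basic GENCODE M21 annotation, and longer minor isoforms lower the value per kilobase. Ratios used a pseudocount of 0.5. Promoters are RefSeq windows (GRCm38.p6). DESeq2 1.42.0 and limma 3.58.1 served as alternatives, and the test was tried on simulated data. R 4.3.3, Python 3.11.15, biopython 1.88 and matplotlib 3.10.9 were used.

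The rule for members uses gene names alone, but this gene family and the lists were chosen with earlier results of these data known. The text names the standard and inducible catalytic genes, Psme1 and Psme2, every called member, and per other role the 2 smallest p and the most counts. It names in each pathway list every called gene or the one with the smallest p; other genes were named after their values were seen, and 1 called regulator is not reported here. Intervals give the uncertainty of the difference between groups, as estimated from these mice with variances moderated over the tested genes. They do not give the spread between mice.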

Additional observations from a re-analysis of the deposited data

Results flagged for a closer look

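In 68 groups of 4 mice, 6 had a mouse whose gap to the nearest other mouse was a larger part of the group's range than Dixon's 95% critical value allows, where chance gives about 1 in 20. All 6 were in the control group. Control mouse 4 held 3 of the low values, with Psme2b at 86.2 CPM, Psmb1 at 267 CPM and Psmd4 at 47.0 CPM, and 1 high value, Psme1 at 894 CPM. Control mouse 3 was low for Psmb10 (141 CPM) and control mouse 2 for Psmb3 (138 CPM). The cause was not tested.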

How the results depend on the processing

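Over all genes, 56 were higher and 47 lower. Higher genes numbered 88 with the filter of 10 counts over the mice, 32 from technical replicates 2 and 3 alone, 18 without the 9 libraries with 10 or more counts of narrowed marker lists, and 2 without the 18 libraries with as many of the full lists. Lower genes numbered 28 with the mouse number as replicate block, 79 with limma-voom, and 19, 6 and 2 under the last 3 settings. Leaving out 1 mouse gave 31 to 67 higher and 23 to 45 lower genes, with 31 higher without control mouse 2 and 25, 23, 25 and 31 lower without control mice 2, 3 and 4 and PGE2-deficient mouse 4. The full marker lists, which include genes with counts in most libraries, left 4 control libraries and 1 PGE2-deficient library, so the lone mouse was assumed to vary like the controls. Upper quartile scaling turned the split to 45 higher and 67 lower.

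Called members numbered 2 with robust dispersion and limma-voom, and 0 with upper quartile scaling, both wider filters, DESeq2, the replicate block and both marker settings. Leaving out 1 mouse gave 0 to 2, with 2 without PGE2-deficient mouse 3, 1 (Psme2) without control mouse 4 and 0 without each of the others. Called immunoproteasome genes, 0 in all libraries, numbered 1 with robust dispersion, limma-voom and the summed Psme2 row, and 0 to 1 without a mouse. No called value reversed. The mouse numbers did not pair the mice: same-numbered mice correlated by −0.089 to 0.1, and 0 of 4 correlated best with each other.

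Of the values without a test (PGE2-deficient minus control), the full marker lists moved the inducible share from 4.28 to −3.08 percentage points. They moved the log2 ratios Psmb8 to Psmb5 from 0.55 to −0.19, Psmb9 to Psmb6 from 0.14 to −0.58, Psmb10 to Psmb7 from −0.18 to 0.67, and PA28 to regulatory particle from 0.44 to 0.089. They moved the log2 differences of sums to 0.84 (structural beta), 0.056 (inducible beta), 0.26 (PA28) and 0.19 (other regulatory particle). The narrowed lists gave −0.23 for Psmb9 to Psmb6 and −0.74 for Psmb10 to Psmb7. With them the inducible share ran from 57.2% to 66.7% in control mice. In PGE2-deficient mice it ran from 60.7% to 66.5%, inside the control range. Technical replicates 2 and 3 alone gave 0.37 for Psmb10 to Psmb7 and 0.19 for the base ATPases. The cause was not tested. Depth limits the 11 untested members.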
